A study of Mus musculus with 6 samples.

Results

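The 9 genes described here encode transcription factors of the liver: the hepatocyte identity factors Hnf4a, Foxa1, Foxa2, Foxa3, Cebpa and Nr5a2, the forkhead factor Foxq1, and the xenobiotic receptors Nr1i2 and Nr1i3. They were taken by symbol from a table of 55487 genes, and all 9 were among the 14046 genes with enough counts to be tested. Foxq1 and Nr1i2 were chosen by their change in the same comparison of GalNAc-siRnf10 with GalNAc-siNC that is described here, and the other 7 by their known role with the results of that comparison known, so the differences between the groups in these 9 genes are given as a description with no p-value. The study used RNA-seq to look for unintended effects on other genes of an siRNA against Rnf10, a RING finger ubiquitin ligase gene, delivered to hepatocytes by GalNAc, a sugar that binds the asialoglycoprotein receptor. Livers came from 6 male wild-type C57BL/6J mice on normal chow, collected at 17 weeks of age. Of these, 3 had been injected subcutaneously with GalNAc-siNC, the control conjugate, and 3 with GalNAc-siRnf10. No untreated mice were part of the comparison, so what both conjugates share was not measured.

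Hepatocyte identity rests on a small circle of transcription factors that bind each other's promoters and those of the genes for secreted proteins, gluconeogenesis and bile acid synthesis. FOXA factors open chromatin, and HNF4A, C/EBP-alpha and NR5A2 act at the enhancers so opened. The receptors PXR (Nr1i2) and CAR (Nr1i3) sense drugs and endogenous steroids and bile acids, pair with RXR, and turn on cytochrome P450, conjugation and transport genes.

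Each mouse gave 1 library, with a total of 26854377 to 33058645 counts, and Rnf10 itself was at 3869 to 4536 normalized counts with GalNAc-siNC and 1738 to 1820 with GalNAc-siRnf10, with no overlap. Of the 6 hepatocyte markers listed, 5 were matched by symbol in the table, with a summed normalized count of 1703610 to 1788330 in GalNAc-siNC livers and 2487520 to 2575560 in GalNAc-siRnf10 livers. Most of that sum was Alb. The log2 fold change was 0.64 for Alb, 0.66 for Ttr, 0.30 for Serpina1b and 0.29 for Cyp2e1. For Apoa1 it was 0.084, and the groups overlapped. A library stood apart: per gene, GalNAc-siNC mouse 1 differed from the other GalNAc-siNC mice by a chi-square of 27.1 and 27.8, against 9.53 between those mice and 4.45 to 5.07 between GalNAc-siRnf10 mice. Values without that mouse are therefore given beside the results. A gene was called changed where the quasi-likelihood test of edgeR, with p-values adjusted over all tested genes after Benjamini and Hochberg, gave an adjusted p under 0.05.

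Of the 9 genes, 5 were called, against 14.0% of all tested genes. Foxq1, Foxa1 and Foxa2 fell, against 7.28% of all tested genes lower, and Nr1i2 and Nr1i3 rose, against 6.71% higher. The groups did not overlap in 6 of the 9 genes, these 5 and Hnf4a, against 32.8% of all tested genes. Nothing is read from these counts, since the genes were chosen with this comparison known. Their median log2 fold change was -0.12. In whole liver, fewer cells of a type and less RNA per cell cannot be told apart.

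**Figure D1:**
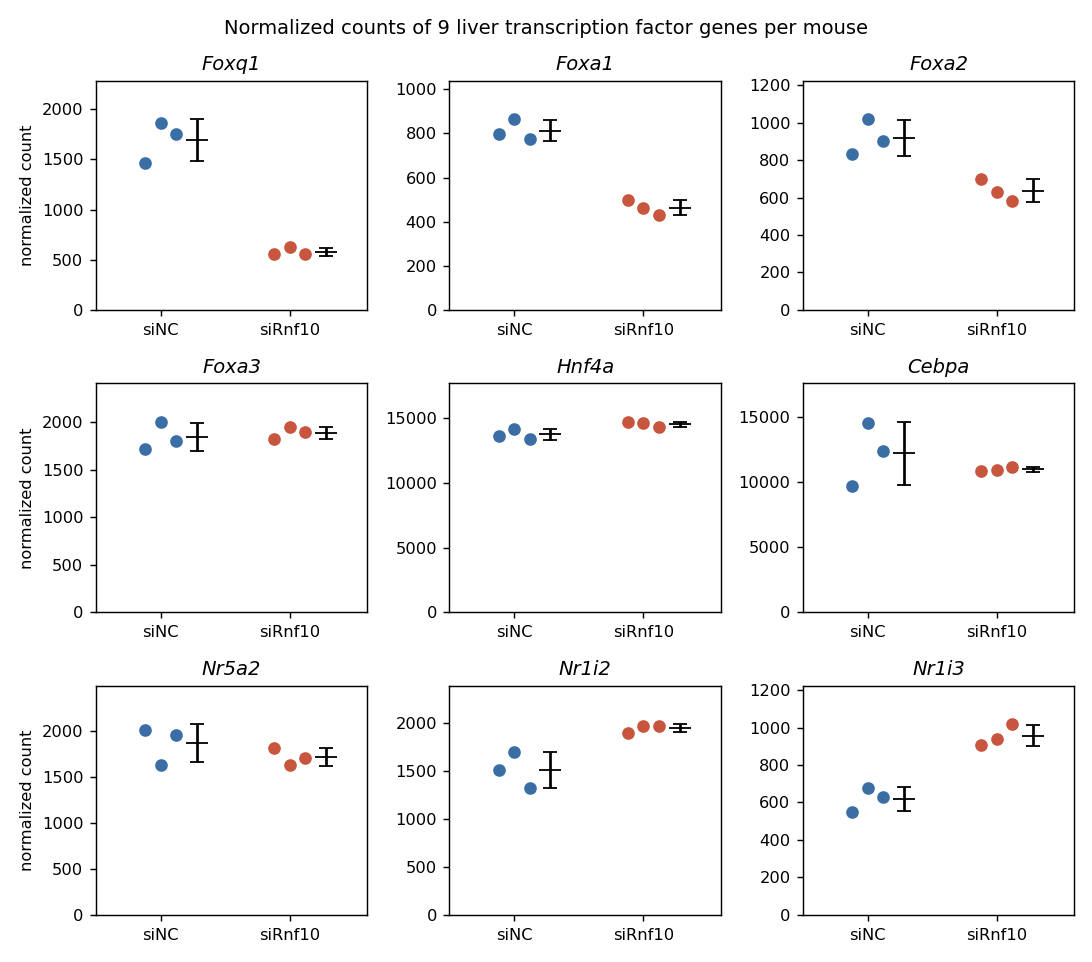
Normalized count (vertical axis, from 0) of each of the 9 genes in 3 GalNAc-siNC mice (blue) and 3 GalNAc-siRnf10 mice (red), with the mean and SD of each group in black. Foxq1, Foxa1 and Foxa2 are lower and Nr1i2 and Nr1i3 higher in every GalNAc-siRnf10 mouse, while Foxa3, Cebpa and Nr5a2 overlap between groups.

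Among the identity factors, Hnf4a, a nuclear receptor needed for most hepatocyte-specific expression, was at 13654, 14189 and 13382 normalized counts in the 3 GalNAc-siNC mice and 14684, 14605 and 14309 in the 3 GalNAc-siRnf10 mice. Every GalNAc-siRnf10 value lay above every GalNAc-siNC value, but the step was small, a log2 fold change of 0.081 (SE 0.0523), and it was not called. Hnf4a, at chr2:163506808-163572910 on the plus strand of GRCm38, thus differed by 5.76% between group means. Without GalNAc-siNC mouse 1 its log2 fold change was 0.074.

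Cebpa encodes C/EBP-alpha, a bZIP factor of metabolic gene control in hepatocytes and adipocytes, from a gene with a single exon at chr7:35119293-35121928, plus strand. Its normalized counts were 9741, 14556 and 12399 with GalNAc-siNC and 10854, 10905 and 11175 with GalNAc-siRnf10. The GalNAc-siNC mice lay on both sides of the treated mice, and mouse 1 was the lowest of all 6. The coefficient of variation was 19.7% among GalNAc-siNC mice and 1.57% among GalNAc-siRnf10 mice. The log2 fold change was -0.16 (SE 0.142), not called. Without GalNAc-siNC mouse 1, Cebpa had a log2 fold change of -0.30 and was called, so the call of Cebpa depends on that mouse.

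Nr5a2 encodes LRH-1, a nuclear receptor of bile acid and cholesterol metabolism, at chr1:136842571-136960448, minus strand. Its normalized counts were 2015, 1631 and 1957 with GalNAc-siNC and 1819, 1626 and 1705 with GalNAc-siRnf10. The groups overlapped, with the lowest mouse of each at nearly the same value. The log2 fold change was -0.12 (SE 0.0835), and -0.067 without GalNAc-siNC mouse 1.

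The 3 FOXA genes, which encode closely related winged-helix pioneer factors, did not move alike. Foxa1, at chr12:57540628-57546916 on the minus strand, was at 797, 864 and 773 normalized counts with GalNAc-siNC and 499.6, 461 and 430.2 with GalNAc-siRnf10. Every treated mouse was below every control mouse, with a wide gap. The mean was 811 ± 47.5 (SD, n = 3) against 464 ± 34.8, a log2 fold change of -0.81 (SE 0.0937), and it was -0.82 without GalNAc-siNC mouse 1.

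Foxa2, at chr2:148042877-148046969 on the minus strand, was at 830.5, 1018 and 902 normalized counts with GalNAc-siNC and 701, 629 and 579 with GalNAc-siRnf10. The groups again did not overlap, though the gap was narrower than for Foxa1. The log2 fold change was -0.53 (SE 0.0979), and -0.60 without GalNAc-siNC mouse 1.

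Foxa3, at chr7:19013284-19023538 on the minus strand, was at 1717, 2008 and 1807 normalized counts with GalNAc-siNC and 1822, 1948 and 1895 with GalNAc-siRnf10. All 3 treated mice fell within the range of the control mice. The log2 fold change was 0.035 (SE 0.0741), and its sign turned, to -0.016, without GalNAc-siNC mouse 1, and to -0.012 with total counts as the scaling.

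The members of the FOXA family differed in level as well. TMM-normalized CPM values were divided by the length of exon that no other gene's exon covers, which gives CPM per kilobase of unshared exon. This scale takes all unshared bases of a gene's annotated transcripts as expressed and evenly covered, which was not tested. The order of levels between genes and the shares of a sum rest on that. On that scale, Foxa1, Foxa2 and Foxa3 summed to 51.8 ± 4.22 (SD, n = 3) with GalNAc-siNC and 45.0 ± 0.962 with GalNAc-siRnf10. Foxa3 supplied 58.8%, 58.9% and 59.1% of that sum in the GalNAc-siNC mice and 66.7%, 70.3% and 71.3% in the GalNAc-siRnf10 mice. The Foxa3 share was thus nearly constant among control mice and higher in every treated mouse. The Foxa1 share was 15.9% ± 0.703 with GalNAc-siNC and 10.4% ± 0.678 with GalNAc-siRnf10, and the Foxa2 share 25.2% ± 0.619 and 20.1% ± 1.73. These shares follow from the fold changes above and are not separate evidence.

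Cholangiocytes also use FOXA1 and FOXA2. Of 6 cholangiocyte markers, 5 were tested, and 1 of them, Spp1, fell, with a log2 fold change of -0.90 (edgeR adjusted p = 8.59e-08). Of all tested genes, 7.28% were called lower. Sox9 was at means of 131 and 89.7 normalized counts in the respective groups and lower in every treated mouse. Its log2 fold change was -0.54 (edgeR adjusted p = 0.0555), not called. Krt19, Epcam and Krt7 were at means of 28.1, 23.2 and 27.6 normalized counts with GalNAc-siNC and 24.3, 20.9 and 22.7 with GalNAc-siRnf10, and were not called. The median log2 fold change of the 5 tested markers was -0.26. The summed marker level was 2037 to 2079 with GalNAc-siNC and 1122 to 1154 with GalNAc-siRnf10, most of it Spp1. Cftr had raw counts of 10, 4 and 6 in GalNAc-siNC mice and 0 in each GalNAc-siRnf10 mouse, too few to be tested. The part of cholangiocytes in the Foxa1 and Foxa2 values was not tested.

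The Foxa1 promoter is shown because, of the 8 genes with an entry in the RefSeq promoter table (GRCm38.p6), it was the only one to hold the forkhead core TGTTTAC on either strand. Windows run from 250 bases before to 50 bases after a transcription start, and some genes have several. Foxq1 has no entry. The window lies at chr12:57546062-57546361, minus strand, and the capitals mark the match, read as its reverse complement, 141 bases before the start.
Foxa1 promoter: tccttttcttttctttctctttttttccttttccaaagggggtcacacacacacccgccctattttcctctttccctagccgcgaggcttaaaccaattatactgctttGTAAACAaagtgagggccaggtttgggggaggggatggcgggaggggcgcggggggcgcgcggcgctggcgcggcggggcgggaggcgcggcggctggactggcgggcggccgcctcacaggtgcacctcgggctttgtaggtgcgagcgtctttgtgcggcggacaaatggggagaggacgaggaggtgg

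That core was found in 3.65% of 32851 promoters in the table and in 1 of the 12 windows of these genes. The HNF4 core CAAAGTCCA (0.475% of all promoters), the C/EBP palindrome TTGCGCAA (0.183%) and the D-box TTATGTAA (0.938%) were in none of the 12. Both strands were searched for each motif. A match is a description of these letters in this window and says nothing of binding, and neither does the lack of one.

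Foxq1, a forkhead factor outside the FOXA group that is known for its role in the hair shaft, differed most among the 9 genes. Its normalized counts were 1466, 1866 and 1750 with GalNAc-siNC and 560, 623 and 553 with GalNAc-siRnf10. The highest treated mouse was far below the lowest control mouse. The mean of 1694 ± 206 (SD, n = 3) compared with 579 ± 39.0, so the GalNAc-siNC mean was 2.93 times the GalNAc-siRnf10 mean, and the log2 fold change of -1.55 (SE 0.0949) became -1.64 without GalNAc-siNC mouse 1.

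The count of Foxq1 rests on the smaller part of its exon. Foxq1 has a single exon of 4843 bases at chr13:31556134-31560976, plus strand, and A530084C06Rik, a gene annotated on the opposite strand, lies wholly inside it with 3200 bases. The libraries were made with a stranded kit, yet in the deposited counts 466 genes that lie wholly within opposite-strand exons all had 0 counts in every mouse. Across the table, 1246 genes had no exon base free of another gene's exon, and 0 of them had a count, against 45.9% of the 54241 other genes. The table thus has the form that counting without strand gives when reads shared by genes on both strands are dropped. Only 1643 bases of Foxq1 (33.9%), of which 783 are coding, could therefore receive counts. The 0 counts of A530084C06Rik carry no information on its expression, and reads from that gene cannot enter the Foxq1 count except past its annotated ends.

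**Figure D2:**
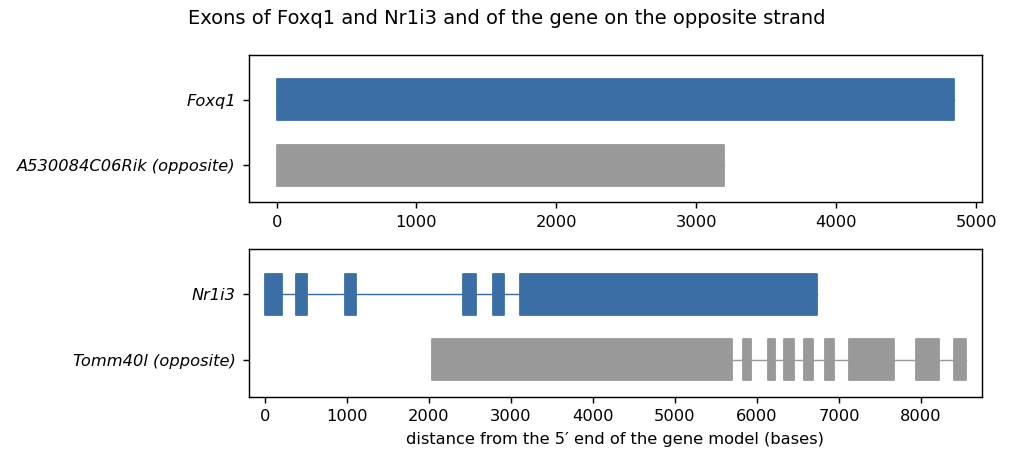
Exons (boxes) of Foxq1 and Nr1i3 (blue) and of the gene on the opposite strand (grey), merged over all annotated transcripts, against the distance in bases from the 5′ end of the blue gene's model. The grey boxes cover 3200 of the 4843 exon bases of Foxq1 and 3304 of the 4414 of Nr1i3, so only the remaining 1643 and 1110 bases were counted.

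The sharing changes where Foxq1 stands. Per kilobase of unshared exon, Foxq1 was in position 3 of the 9 genes in GalNAc-siNC livers, at 34.8 ± 4.22 (SD, n = 3) CPM per kilobase, behind Cebpa at 159.5 ± 31.4 and Hnf4a at 95.9 ± 2.87. Divided by its whole gene model it would have been at 11.8, in position 6. In GalNAc-siRnf10 livers its level per kilobase of unshared exon was 11.9 ± 0.800, also in position 6, and the ratio of Foxq1 to Foxa2 on this scale was 2.66 ± 0.127 with GalNAc-siNC and 1.32 ± 0.147 with GalNAc-siRnf10.

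The order of the levels per kilobase of unshared exon in GalNAc-siNC livers went on with Foxa3 (30.5 ± 2.47), Nr1i2 (19.9 ± 2.46), Nr1i3 (18.8 ± 2.01), Foxa2 (13.0 ± 1.35), Nr5a2 (10.7 ± 1.18) and Foxa1 (8.22 ± 0.482). The ranges of Foxq1 and Foxa3 overlapped there, although Foxq1 was above Foxa3 in all 3 mice. Those of Nr1i2 and Nr1i3 also overlapped, with Nr1i2 above in 2 of 3 mice, so that this order was within the spread between mice. The level of Nr1i3 depends on which of its bases are counted, as given below, and the counted bases of Foxq1 all lie at its 3′ end. In GalNAc-siRnf10 livers Cebpa (143 ± 2.25) and Hnf4a (101.5 ± 1.38) again led. Below them, Foxa3 (31.2 ± 1.04) and Nr1i3 (29.0 ± 1.71) overlapped with Foxa3 above in all 3 mice, Nr1i2 (25.7 ± 0.570) and Foxq1 followed, Nr5a2 (9.81 ± 0.552) and Foxa2 (9.05 ± 0.868) overlapped with Nr5a2 above in all 3 mice, and Foxa1 (4.70 ± 0.352) was last.

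**Figure D3:**
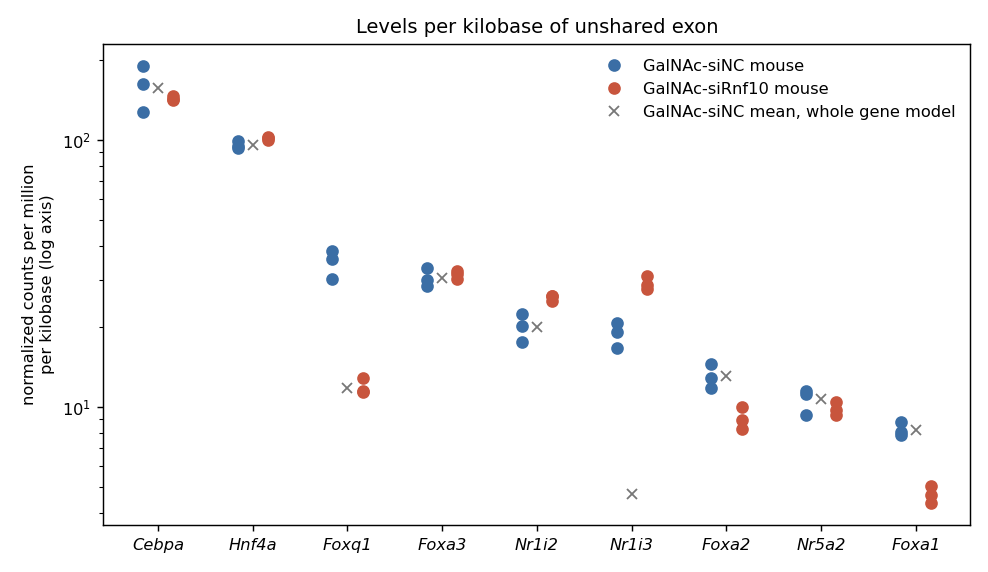
Level of each gene in CPM per kilobase of unshared exon (log axis) in each GalNAc-siNC mouse (blue) and GalNAc-siRnf10 mouse (red), ordered by the GalNAc-siNC mean; crosses give the GalNAc-siNC mean over the whole gene model. The crosses of Foxq1 (11.8) and Nr1i3 (4.73) sit well below their points (means 34.8 and 18.8), while those of the other genes sit among them.

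Nr1i2, at chr16:38248323-38294824 on the minus strand, encodes PXR, the receptor that detects drugs and bile acids. Its normalized counts were 1516, 1695 and 1322 with GalNAc-siNC and 1897, 1971 and 1972 with GalNAc-siRnf10. All treated mice lay above all control mice, and the control mice were the more scattered, with a coefficient of variation of 12.3% against 2.22%. The mean rose from 1511 ± 186 (SD, n = 3) to 1947 ± 43.2, 28.8% higher, with a log2 fold change of 0.37 (SE 0.0835) that was 0.37 also without GalNAc-siNC mouse 1. None of its 2553 exon bases were shared with another gene.

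Nr1i3, at chr1:171213970-171220701 on the plus strand, encodes CAR, which responds to phenobarbital and to bilirubin. Its normalized counts were 548, 680 and 628 with GalNAc-siNC and 909, 939 and 1018 with GalNAc-siRnf10. Again every treated mouse was above every control mouse. The mean was 619 ± 66.2 (SD, n = 3) against 955 ± 56.5, 54.4% higher, with a log2 fold change of 0.63 (SE 0.0936), and 0.55 without GalNAc-siNC mouse 1. In raw counts Nr1i3 had 630 to 982 per mouse.

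Nr1i3 was also counted on part of its model. Tomm40l, a mitochondrial import pore gene on the opposite strand, covers 3304 of its 4414 exon bases, which leaves 1110 (25.1%). In the transcript Nr1i3-201, exons 4 to 9 are wholly shared and exons 1, 2 and 3, of 204, 143 and 131 bases, are free. Its coding sequence was therefore counted only in exon 2 from the start codon, at chr1:171214349-171214485, and in exon 3, at chr1:171214944-171215074. Both stretches, plus strand of GRCm38 from the GENCODE M21 transcript, are shown because they are the only coding bases of Nr1i3-201 that were counted, and the capitals mark the start codon.
Nr1i3 exon 2: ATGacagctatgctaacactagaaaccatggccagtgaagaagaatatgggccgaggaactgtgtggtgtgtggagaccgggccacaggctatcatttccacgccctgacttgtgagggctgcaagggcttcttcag
Nr1i3 exon 3: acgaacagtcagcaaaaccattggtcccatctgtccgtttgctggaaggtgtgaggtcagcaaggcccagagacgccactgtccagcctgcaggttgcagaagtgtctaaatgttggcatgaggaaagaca

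These stretches are 268 of the 1110 counted bases of Nr1i3. The free exons of Nr1i3-201 hold 478 bases, and the other 632 belong to longer annotated transcripts and lie within introns of Tomm40l. How the Nr1i3 counts divide between the 478 and the 632 bases cannot be read from the table. If all of them came from the 478 bases, the Nr1i3 level would be 43.6 CPM per kilobase with GalNAc-siNC and 67.4 with GalNAc-siRnf10, position 3 among the 9 genes in both groups.

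Tomm40l itself kept 35.7% of its exon bases unshared. It was at 145, 158 and 165 normalized counts with GalNAc-siNC and 259, 265 and 310 with GalNAc-siRnf10, and rose with a log2 fold change of 0.83 (SE 0.132, edgeR adjusted p = 0.000316). Both genes of this overlapping pair were thus counted higher in every treated mouse, each on bases that no exon of the other covers. Per kilobase of unshared exon, Tomm40l was at 2.87 and 5.12 in the respective groups and Nr1i3 at 18.8 and 29.0. However, 632 of the 1110 unshared bases of Nr1i3 lie in introns of Tomm40l, and 755 of the 1831 unshared bases of Tomm40l lie in introns of Nr1i3. Without strand, unspliced reads of one gene there count for the other and cannot be told apart, so the values of these genes are not independent of each other.

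Nr1i2 and Nr1i3 together were at 38.7 ± 3.70 (SD, n = 3) CPM per kilobase of unshared exon with GalNAc-siNC and 54.7 ± 2.16 with GalNAc-siRnf10, with Nr1i3 taken over all 1110 of its unshared bases, as in the ratio that follows. The ratio of Nr1i3 to Nr1i2 was 0.832, 0.923 and 1.09 in the control mice and 1.10, 1.10 and 1.19 in the treated mice. The highest control ratio was just below the lowest treated one. The promoters of both receptors, which rose together, are shown from RefSeq (GRCm38.p6). That of Nr1i2 lies at chr16:38294775-38295074, minus strand, and that of Nr1i3 at chr1:171213720-171214019, plus strand. Neither holds any of the 4 motifs searched, so no letter is in capitals.
Nr1i2 promoter: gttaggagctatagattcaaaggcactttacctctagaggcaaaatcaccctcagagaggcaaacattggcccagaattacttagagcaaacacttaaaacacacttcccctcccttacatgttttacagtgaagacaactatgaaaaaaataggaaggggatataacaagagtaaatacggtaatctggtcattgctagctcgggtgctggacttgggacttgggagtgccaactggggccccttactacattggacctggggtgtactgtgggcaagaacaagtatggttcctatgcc
Nr1i3 promoter: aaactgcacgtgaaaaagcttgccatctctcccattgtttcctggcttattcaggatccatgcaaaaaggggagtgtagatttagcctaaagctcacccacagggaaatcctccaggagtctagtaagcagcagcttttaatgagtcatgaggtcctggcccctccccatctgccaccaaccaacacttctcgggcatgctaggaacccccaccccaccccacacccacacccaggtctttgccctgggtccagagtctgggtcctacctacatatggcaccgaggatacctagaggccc

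**Figure D4:**
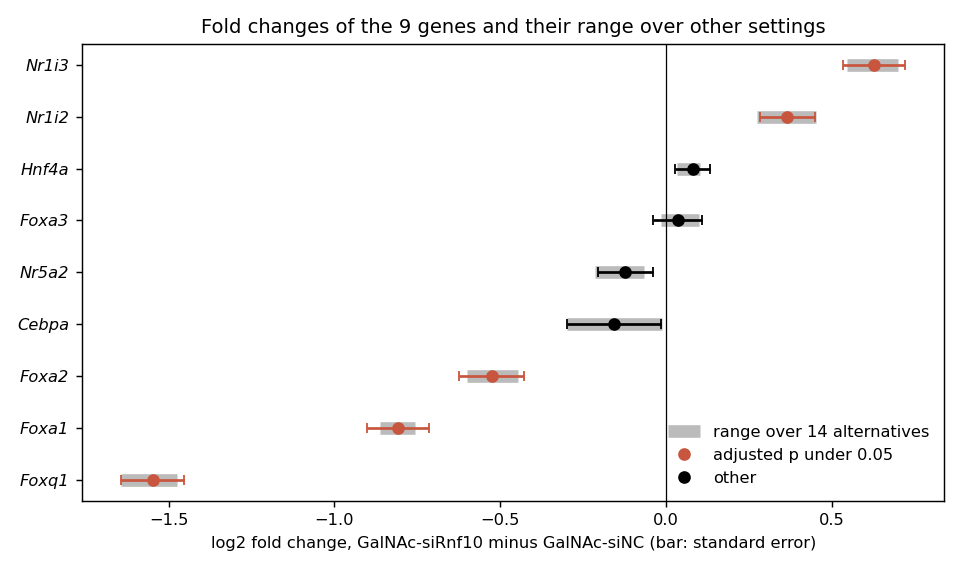
Log2 fold change, GalNAc-siRnf10 minus GalNAc-siNC (horizontal axis), of the 9 genes with its standard error (bars) and the range over 14 other settings (grey), red where the adjusted p was under 0.05. Foxq1 stays between -1.64 and -1.47, Nr1i2 between 0.27 and 0.45 and Nr1i3 between 0.55 and 0.70, while the range of Foxa3 crosses 0. The colours are a description only, since the genes were chosen with this comparison known.

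Genes that PXR and CAR are known to induce were mostly higher with GalNAc-siRnf10. Of 24 such genes, 22 were tested, 16 rose and 1 fell, with a median log2 fold change of 0.46 against 0.0022 over all tested genes. Of all tested genes, 6.71% were called higher and 7.28% lower, which is the background for this list and every list below. All gene lists in this report were chosen with earlier results of these data known. Their counts and adjusted p-values are therefore a description, and no support is drawn from them. Cyp3a11, the main PXR-induced P450, rose from a mean of 29535 ± 2286 (SD, n = 3) to 67373 ± 2053 normalized counts, a log2 fold change of 1.19 (SE 0.0587, edgeR adjusted p = 4.15e-10). Cyp2a5, which hydroxylates coumarin, rose from 10648 ± 348 to 28035 ± 141, a log2 fold change of 1.40 (SE 0.0523).

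Of the conjugation and transport genes of this list, Gsta2, a glutathione transferase, rose from 127 ± 17.5 to 428 ± 38.9 normalized counts, a log2 fold change of 1.75. The uptake carrier Slco1a4 rose by a log2 fold change of 1.16 (SE 0.0986) and the export pump Abcc3 by 0.84 (SE 0.0602). Every treated mouse was above every control mouse for each of these 5 genes. Cyp2b10, the classical CAR target, was chosen after its values were seen, since its mean normalized count was low: 15.2 ± 8.63 with GalNAc-siNC and 77.8 ± 8.16 with GalNAc-siRnf10. Its log2 fold change was 2.35 (SE 0.329). The gene that fell was Cyp3a13, with a log2 fold change of -0.25, likewise named after its values were seen. Counts of Cyp2a, Cyp2c, Cyp3a and Gsta genes are uncertain in detail because each family has near-identical copies. Against 17 called genes in all, 12 were called without any one GalNAc-siRnf10 mouse, 14 and 13 without GalNAc-siNC mouse 2 and 3, and 18 without GalNAc-siNC mouse 1.

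**Figure D5:**
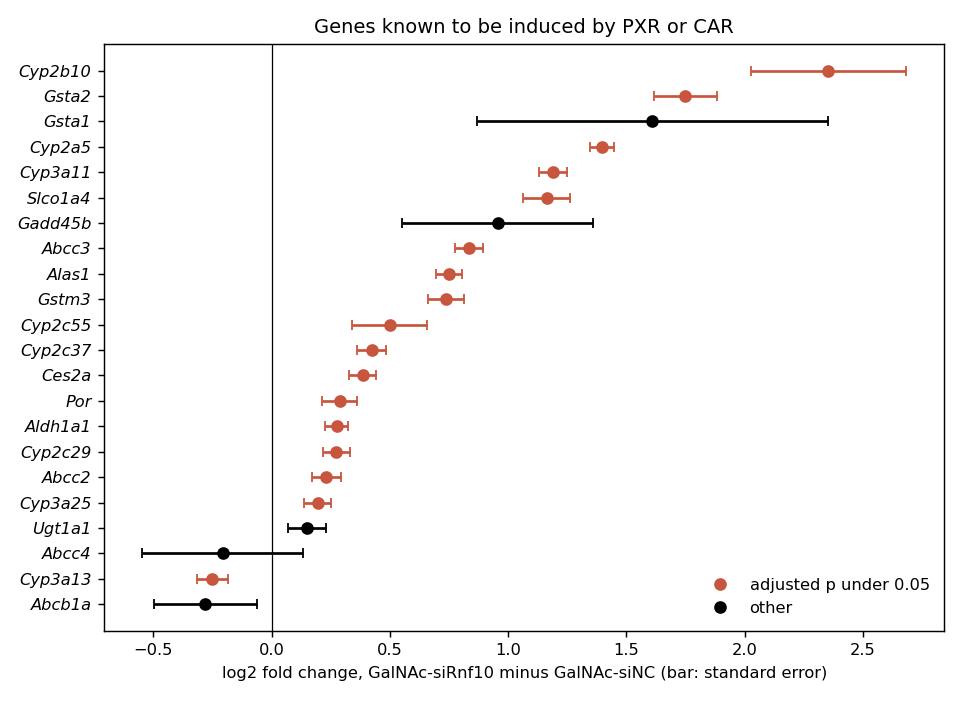
Log2 fold change, GalNAc-siRnf10 minus GalNAc-siNC (horizontal axis), with standard error (bars), of the 22 tested genes known to be induced by PXR or CAR, red where the edgeR adjusted p was under 0.05. Of the 22 points, 16 in red lie above 0, led by Cyp2b10 (2.35) and Gsta2 (1.75), and 1 in red, Cyp3a13 (-0.25), lies below, as do Abcb1a (-0.28) and Abcc4 (-0.21) in black.

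The genes for proteins that PXR and CAR work with were mostly not called. Of 15 receptor partners, co-activators, co-repressors and chaperones, 2 rose and 1 fell, with a median log2 fold change of -0.055. Thus 20% of them were called, against 14.0% of all tested genes. Nr0b2, which encodes the co-repressor SHP, rose from 288 ± 20.2 (SD, n = 3) to 503 ± 12.4 normalized counts, a log2 fold change of 0.81 (SE 0.104, edgeR adjusted p = 4.19e-05). Dnajc7, the chaperone that holds CAR in the cytoplasm, had a log2 fold change of 0.30 (SE 0.0861, edgeR adjusted p = 0.0272), and Rxrg, which encodes a partner of both receptors, one of -0.45 (SE 0.145, edgeR adjusted p = 0.0460). Both calls were lost when GalNAc-siNC mouse 2 or 3 or any GalNAc-siRnf10 mouse was left out, with an edgeR adjusted p of 0.0666 to 0.133 for Dnajc7 and 0.0524 to 0.198 for Rxrg, and in those without GalNAc-siNC mouse 3 or a GalNAc-siRnf10 mouse 1 of the 15 genes was called. The call of Dnajc7 was also lost with total counts, and that of Rxrg with DESeq2, limma voom and the replicate block. Rxra, the usual partner, was at 13993 ± 640 and 13414 ± 90.7 normalized counts and was not called.

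Known targets of the identity factors were higher or not called, with 1 exception. Of 12 targets of FOXA and C/EBP-alpha, 10 rose and 0 fell, with a median log2 fold change of 0.59, while Foxa1 and Foxa2 themselves fell. Igfbp1, which binds insulin-like growth factors, rose from 306 ± 25.2 (SD, n = 3) to 1323 ± 71.1 normalized counts, a log2 fold change of 2.11 (edgeR adjusted p = 6.46e-11). The amino acid catabolic enzymes Tat and Tdo2 rose by log2 fold changes of 1.41 and 0.88, and the carrier proteins Ttr and Alb by 0.66 and 0.64. The call of Ttr was lost without GalNAc-siNC mouse 2 (log2 fold change 0.68, edgeR adjusted p = 0.114).

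Of 18 tested HNF4A targets, 6 rose and 0 fell, with a median log2 fold change of 0.17. Cyp7a1, the rate-limiting enzyme of bile acid synthesis, rose from 7092 ± 854 (SD, n = 3) to 14353 ± 317 normalized counts, a log2 fold change of 1.02 (edgeR adjusted p = 5.86e-08). The gluconeogenic genes G6pc and Pck1 rose by log2 fold changes of 0.59 and 0.48, and the urea cycle gene Otc by 0.41. Without GalNAc-siNC mouse 1, 10 of these targets were called. Ttr, G6pc and Pck1 belong to both this list and the previous one.

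Of 9 NR5A2 targets, 4 rose and 1 fell, with a median log2 fold change of 0.19. Cyp7a1 and Nr0b2, described above, were joined by Abcg5, a sterol exporter (log2 fold change 0.36), and Akr1d1, a bile acid synthesis enzyme (0.32), while Scarb1, the HDL receptor, fell by 0.48 on the log2 scale. The call of Abcg5 was lost without GalNAc-siRnf10 mouse 1 (log2 fold change 0.32, edgeR adjusted p = 0.0543). Hepatocyte markers moved with these target lists: 4 of the 5 tested rose and 0 fell, and 2 of them, Alb and Ttr, are also on the target lists. The part of hepatocyte content in the lists was not tested.

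Other transcription factors of the liver changed in both directions. Of 32 such genes outside the 9, 5 rose and 6 fell, with a median log2 fold change of -0.065. Klf15, a factor of fasting amino acid use, rose from 3556 ± 380 (SD, n = 3) to 6088 ± 160 normalized counts, a log2 fold change of 0.78 (edgeR adjusted p = 9.60e-07). Hhex, a homeobox factor of liver formation, fell from 5895 ± 483 to 3436 ± 60.1, a log2 fold change of -0.78 (edgeR adjusted p = 3.30e-07). Foxo1, the insulin-sensitive forkhead factor, rose by a log2 fold change of 0.57 (edgeR adjusted p = 0.000110). Without GalNAc-siNC mouse 1, 19 of the 32 were called.

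The families of the 9 genes were also mixed. Outside the 9, 21.4% of the tested forkhead genes and 23.5% of the tested nuclear receptor genes were called, against 14.0% of all tested genes. Of 44 forkhead genes, 18 were tested, and among the 14 outside the 9, 2 rose, Foxo1 and Foxo3, and 1 fell, Foxk1, by 0.37 on the log2 scale (edgeR adjusted p = 0.0245), a call lost without GalNAc-siNC mouse 2 or any GalNAc-siRnf10 mouse (0.0799 to 0.119). Foxo3 was named after its values were seen, with a log2 fold change of 0.35. The untested forkhead genes reached no more than 12 raw counts in any mouse. Of 49 nuclear receptor genes, 38 were tested, and of the 34 outside the 9, 3 rose and 5 fell. The clock repressor Nr1d1 fell by 0.68 on the log2 scale (edgeR adjusted p = 1.78e-05), the retinoic acid receptor Rara by 0.62 (edgeR adjusted p = 0.00114) and the orphan receptor Nr6a1 by 0.47 (edgeR adjusted p = 0.0376), the last a call lost with limma voom, without GalNAc-siNC mouse 1 or 3 and without any GalNAc-siRnf10 mouse (adjusted p 0.0552 to 0.189). The bile acid receptor Nr1h4 was at 4500 ± 87.6 and 4871 ± 53.2 normalized counts and Ppara at 3009 ± 177 and 3012 ± 18.2, neither called.

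Markers of the other liver cells gave mixed counts. Of 6 Kupffer cell markers, 0 were called, and their summed level was 4245 to 4924 normalized counts with GalNAc-siNC and 4576 to 4797 with GalNAc-siRnf10. Of 6 sinusoidal endothelial markers 2 rose, and of 6 stellate cell markers 3 rose, with sums of 1882 to 1927 and 2552 to 2701 with GalNAc-siNC and of 2038 to 2116 and 3133 to 3277 with GalNAc-siRnf10. Dcn, at means of 1457 and 1865 in the respective groups, was the larger part of the stellate sum. The other stellate markers, Lrat (201 and 166), Pdgfrb (161 and 135) and Des (43.4 and 38.0), had lower means with GalNAc-siRnf10 and were not called. Stab2 (711 and 594) was the only endothelial marker with a lower mean, and it was not called. Of the lymphocyte and neutrophil markers, 2 of 6 were tested and S100a9 fell, at 38.2 ± 13.5 (SD, n = 3) and 14.1 ± 2.29. Pancreas and intestine markers bear on Foxa1, Foxa2 and Nr5a2, since those organs use these factors too. Of 6 such markers, 2 were tested, Cela1 and Fabp2, and both rose. Cpa1, a defining pancreatic enzyme, had 0 counts in each mouse, Pnlip and Prss2 at most 2 raw counts and Vil1 4 to 16. Which cells the Cela1 and Fabp2 counts came from was not tested.

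The genes whose values over the 6 mice lay closest to those of Foxq1, by the root mean square difference of log2 normalized counts centred on the GalNAc-siNC mean among 10944 genes, were Myc (0.119), Lcn2 (0.127) and Tchh (0.135). Myc was at 1112, 1342 and 1223 normalized counts with GalNAc-siNC and 410.3, 459.9 and 486 with GalNAc-siRnf10. Like Foxq1, it was at its control minimum in mouse 1, and the groups were far apart. For Nr1i2 the closest genes were App (0.0435), Asrgl1 (0.0445) and Slc19a1 (0.0502), and for Nr1i3 they were Tk1 (0.0459), Cbr1 (0.0533) and Gpihbp1 (0.0580). These genes were picked for likeness, so their values are a description, with no test.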

How the data were processed

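Liver RNA was sequenced in 6 mice, 3 per treatment. From libraries made with a stranded mRNA kit, the authors mapped paired-end reads to GRCm38 with HISAT2; the counting tool was not given in the sources used here. The authors deposited raw counts per gene, without normalization. Each mouse was assigned to its group by its label. Values of 2 (10878) outnumbered values of 1 (6043) in the table, as when both mates of a pair are counted, so the number of independent fragments is lower than the counts and counting error larger. Exon bases of the gene models came from the positions deposited with the counts, and exons and sequence of single transcripts from GENCODE M21. Symbols were matched by gene identifier (346 identifiers had none), and promoters came from RefSeq.

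The genes and gene lists were chosen with earlier results of these data known. In R 4.3.3, edgeR 4.0.16 was run with filterByExpr, TMM normalization, robust quasi-likelihood fits of treatment alone, and Benjamini-Hochberg adjustment. Normalized counts are counts scaled to the mean effective library size. The code was tested on simulated data. Alternatives were other scalings (RLE, upper quartile, total counts), other filters, DESeq2 1.42.0, limma 3.58.1 voom, the replicate number as a block, and leaving out each mouse. Named were the 9 genes, Rnf10, up to 5 called genes per list, those with the largest changes among genes averaging 50 or more normalized counts, and the 3 genes most like Foxq1, Nr1i2 and Nr1i3. A gene that this rule names is not reported here. Genes named beside a list as uncalled, and marker genes, were chosen after their values were seen. Group sizes of 3 limit the precision, and a biological coefficient of variation of 9.28% was estimated.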

Additional observations from a re-analysis of the deposited data

How the results depend on the processing

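Of 126 combinations of the 9 genes with 14 other settings, 123 kept the direction and the side of the threshold. That count describes the processing and adds no support, since the 9 genes were chosen with this comparison known. The log2 fold change of Foxa3 turned sign with total counts (-0.012) and ranged from -0.016, without GalNAc-siNC mouse 1, to 0.099 when single mice were left out, and Cebpa became called without that mouse (log2 fold change -0.30). Leaving out each mouse in turn, the number of called genes over the whole table, 1965 in all, ranged from 1053 to 2864, with 1053 without GalNAc-siRnf10 mouse 1, 1128 without GalNAc-siRnf10 mouse 2 and 1128 without GalNAc-siRnf10 mouse 3. Those of the 9 genes called ranged from 5 to 6, of the other liver transcription factors from 9 to 19, of the receptor partners from 1 to 4 and of the HNF4A targets from 5 to 10. The partners had 1 called gene without GalNAc-siNC mouse 3 or without any GalNAc-siRnf10 mouse. Each of these fits used fewer mice, and the cause of the changes in these counts was not tested. Of 406 combinations for the other named genes, 380 kept direction and call and 26 lost the call in the same direction, none of them reversed.

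Mice of the groups share numbers in the labels but are different animals. Deviations of same-numbered mice correlated at -0.00099, 0.0272 and -0.0337, and those of mice with unlike numbers at -0.0364 to 0.0368. These values give no sign that the numbers pair the mice. With the replicate number as a block, 1816 genes and 5 of the 9 were called, and of the genes named by the rule only Rxrg lost its call. Of 164 tested list genes outside the 9, 5 (Nr2f6, Onecut1, Ugt1a1, Apoa4 and Apoc2) had under 50% unshared exon bases, and none was called.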
